A study of Homo sapiens with 4 samples.

Results

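MALAT1, MIR210HG, GAS5 and NEAT1 are 4 genes whose RNA products are long and not translated, and their signals were compared between HCT116 cells held in low and in normal oxygen. A probe set, the group of short array probes summarised to 1 value, was taken when the platform's probe-to-gene table listed it for exactly 1 of these genes. This rule gave 15 of the 54613 probe sets that were not array controls, 12 for MALAT1, 2 for MIR210HG and 1 for GAS5, so that 3 of the 4 genes, of 19775 genes on the array, are represented. NEAT1 had 0. Its name stood only beside that of MIR612, a microRNA gene that lies inside NEAT1 in the RefSeq gene table, and those 9 probe sets are described apart, as are 4 listed for GAS5 together with the small nucleolar RNA genes it contains.

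HCT116 is an established human colon cancer cell line. All cultures were first kept without serum for 24 h. The hypoxia group was then held for 72 h at 1% oxygen and the normoxia group for 72 h at 21% oxygen, so absence of serum was shared by both. Each group held 2 arrays, titled "exp A" and "exp B" and called A and B here, with labelled cRNA made from 6 µg of total RNA. The titles can be read as experiments A and B, but no label says whether these were separate cultures, and p-values therefore reflect only how these samples differ, possibly for technical reasons. Each value is an average over a culture, in which fewer cells carrying an RNA and less of it per cell cannot be told apart.

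MALAT1 is an abundant nuclear RNA that gathers at nuclear speckles, bodies rich in splicing factors. RNase P cuts its 3′ end, releasing a small tRNA-like RNA, mascRNA. NEAT1, transcribed from the same stretch of chromosome 11, is the scaffold of paraspeckles, and its short and long isoforms begin at the same start but end at different sites. MIR210HG is the host transcript of miR-210, a microRNA that is known to be induced through hypoxia-inducible factor. GAS5 carries many small nucleolar RNAs in its introns. Its spliced transcript is degraded by nonsense-mediated decay when translated, accumulates when growth stops, and can bind the glucocorticoid receptor.

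Mature miR-210 was not measured by these probe sets. Its guide strand is shown because genes known as its targets are counted further on, with the seed (bases 2 to 8) in capitals, from RefSeq (GRCh38.p14). Those genes were taken from a list of known targets and were not searched for with this sequence.
hsa-miR-210-3p: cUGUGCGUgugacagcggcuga
The promoter window of MIR210HG, from 250 bases before to 50 bases after the annotated start, is shown because host and microRNA share it, and the 2 windows of MALAT1 because this gene held most of the probe sets that rose. All are from RefSeq (GRCh38.p14) and read 5′ to 3′ along the transcribed strand. Capitals mark ACGTG or GCGTG, the 5-base cores of hypoxia response elements, searched on both strands, so that CACGT and CACGC also count. The MIR210HG window is chr11:568408-568707, minus strand, and those of MALAT1 are chr11:65497488-65497787 and chr11:65498795-65499094, plus strand.
MIR210HG start 1: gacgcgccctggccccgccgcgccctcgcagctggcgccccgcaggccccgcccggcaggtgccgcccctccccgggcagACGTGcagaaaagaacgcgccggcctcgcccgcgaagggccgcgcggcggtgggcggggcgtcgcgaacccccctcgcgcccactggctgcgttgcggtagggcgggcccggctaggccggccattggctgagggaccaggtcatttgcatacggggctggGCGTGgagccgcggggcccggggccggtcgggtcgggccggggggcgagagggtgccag
MALAT1 start 1: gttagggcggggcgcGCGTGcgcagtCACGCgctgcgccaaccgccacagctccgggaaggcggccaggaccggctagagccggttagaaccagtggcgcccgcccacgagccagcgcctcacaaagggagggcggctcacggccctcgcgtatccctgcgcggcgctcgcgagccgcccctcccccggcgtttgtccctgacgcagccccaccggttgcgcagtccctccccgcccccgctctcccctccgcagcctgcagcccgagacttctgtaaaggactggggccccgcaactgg
MALAT1 start 2: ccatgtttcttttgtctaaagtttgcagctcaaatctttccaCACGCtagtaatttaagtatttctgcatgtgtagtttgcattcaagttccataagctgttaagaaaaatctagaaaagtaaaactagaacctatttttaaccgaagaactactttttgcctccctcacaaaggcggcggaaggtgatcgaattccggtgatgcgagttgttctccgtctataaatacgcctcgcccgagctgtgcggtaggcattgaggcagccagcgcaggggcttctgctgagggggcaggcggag
MIR210HG held ACGTG at 170 bases and GCGTG at 9 bases before its start. MALAT1 held GCGTG on both strands in the first window, at 235 and 224 bases before the start, and once on the opposite strand in the second, 208 bases before it. The table has no window for NEAT1, and the GAS5 window, chr1:173868996-173869295 on the minus strand, held 0 matches. Of 35116 windows of this length in the table, 48.4% held at least 1 match and 23.1% at least 2, so these short words are common and a match is only a description. The first 50 transcribed bases of GAS5 in that table are shown for their longest pyrimidine run (capitals), since GAS5 is known as a gene whose RNA starts with a pyrimidine tract. The run is 8 bases long and begins at base 32, so the annotated start used here does not begin with it. Whether this run is the known tract was not tested. Of all windows, 17.1% hold a run at least as long in the same 50 bases.
GAS5 first 50 transcribed bases: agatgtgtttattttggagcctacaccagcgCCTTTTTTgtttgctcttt

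The 4 arrays carried values made to a common mean, with a trimmed mean of 500.1 on each, and medians from 69.2 to 125 signal units. The brightest of the Bacillus control probe sets, for which human cells have no gene, ranged from 45.7 to 121 in normoxia and from 226 to 305 in hypoxia, so dim signals are less certain in hypoxia. The hybridization controls, which are added to each hybridization in fixed amounts, were 2.75 times brighter in hypoxia by geometric mean. They also differed within normoxia, with 2444 in A and 4595 in B, against 9869 and 8594 in hypoxia A and B. The ratio of 3′ to 5′ signal, a sign of RNA quality, was 0.912 to 0.996 for GAPDH on all arrays and, for ACTB, 1.26 to 1.28 in normoxia and 1.66 to 1.77 in hypoxia. The part of these differences in the results was not tested. The colon epithelial markers EPCAM, KRT8, KRT18 and CDH1 were bright on all arrays, whereas CDX1, CDH17 and LGALS4 lay under the filter on low signal. EPCAM (log2 difference 0.66, SE 0.18) and CDH1 (1.02, SE 0.17) were called higher in hypoxia. After quantile normalization EPCAM read 0.001 and was not called (limma adjusted p = 0.995), nor was it without the filter (limma adjusted p = 0.0598). Scaled to the hybridization controls, EPCAM and CDH1 read -0.80 and -0.43. CDX2, KRT20 and VIL1 passed the filter but were dim and not called. CDX2, a transcription factor of the intestine, read 210 and 217 in normoxia and 23.0 and 107 in hypoxia (-1.60, limma adjusted p = 0.131). Of 10 markers of other cell types 5 lay under it (PTPRC, CD3E, CD14, VWF and ALB), 1 was higher in hypoxia (COL1A1, log2 difference 1.73, SE 0.22) and 4 were not called. The summed signal of the 10 was 976 to 1752 in normoxia and 2572 to 3353 in hypoxia. COL1A1 alone read 545 and 595 in normoxia and 1752 and 2162 in hypoxia, a large part of that sum. The 4 other COL1A1 probe sets tested had smaller differences, from 0.32 to 0.91.

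MALAT1 RNA was higher in hypoxia. Of its 12 probe sets, 11 rose and 0 fell, and on the log2 scale the 12 differences ran from 0.88 to 2.08 with a median of 1.40, a 2.64-fold increase. A call is an adjusted p under 0.05 in limma, on log2(signal + 23.7) with Benjamini-Hochberg adjustment over the 27304 probe sets whose mean signal was at or above 97.4. Among all of those, 13.7% were called higher and 17.1% lower, and the median difference was 0.05. Both hypoxia values lay above both normoxia values in 35.4% of them and below in 33.2%. The calls on MALAT1 rest on the scaling of the arrays, as set out after the values.

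The brightest MALAT1 probe set, 1558678_s_at, gave 19046 and 14758.5 in normoxia A and B and 43874 and 35565 in hypoxia A and B. Both hypoxia arrays lay above both normoxia arrays, with means of 16902 ± 3032 and 39720 ± 5876 (SD, n = 2 each). The log2 difference was 1.24 (SE 0.21, 95% interval 0.76 to 1.71, limma adjusted p = 0.00252).

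Probe sets 223940_x_at, 224568_x_at, 224567_x_at and 226675_s_at followed the same pattern, highest in hypoxia A, then hypoxia B. Normoxia gave 11582 and 8016 for 223940_x_at, against 29746 and 23183 in hypoxia. For 224568_x_at the normoxia arrays read 9033 and 5761 and the hypoxia arrays 20870 and 16262. Signals of 224567_x_at were 7174 and 6189 without and 21745 and 14630 with hypoxia. The fourth, 226675_s_at, went from 3656 and 2278 to 10492 and 5986. None of these 4 overlapped between the groups, and 35.4% of all probe sets tested also had both hypoxia values higher. Their log2 differences of 1.44, 1.35, 1.42 and 1.45 (SE 0.22 to 0.29) had limma adjusted p-values of 0.00164, 0.00301, 0.00148 and 0.00579.

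The change with the highest ratio was at 227510_x_at, with 580 and 438 in normoxia and 1751 and 2781 in hypoxia A and B. Its log2 difference was 2.08 (SE 0.27, limma adjusted p = 7.03e-04), a 4.23-fold increase. Here, and in 231735_s_at, 223577_x_at, 223578_x_at and 224558_s_at, hypoxia B was the highest array, unlike in the sets above. The 231735_s_at signal was 551 and 609 in normoxia and 1539 and 2441 in hypoxia, a log2 difference of 1.70 (SE 0.26, limma adjusted p = 0.00142). For 223577_x_at the values were 445 and 505, then 833 and 1466. For 223578_x_at they were 393 and 343, then 711 and 1367. Both of these rose, by 1.18 (SE 0.30, limma adjusted p = 0.0170) and 1.37 (SE 0.34, limma adjusted p = 0.0138) on the log2 scale, with no overlap. Without hypoxia B, the highest array, these were 0.78 and 0.91, still called.

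Probe set 224558_s_at had the smallest MALAT1 difference and the tightest replicates. It read 1051 and 959 in normoxia and 1842 and 1882 in hypoxia, a log2 difference of 0.88 (SE 0.19, limma adjusted p = 0.00877). Values of 570 and 232 in normoxia and 1192 and 951 in hypoxia were found for 228582_x_at, with a difference of 1.48 (SE 0.39, limma adjusted p = 0.0182) that was 0.87 and not called without normoxia B. The remaining set, 224559_at, gave 1763 and 333 in normoxia and 2599 and 1625 in hypoxia. It was the single MALAT1 set whose groups overlapped, since normoxia A lay above hypoxia B, and its difference of 1.38 (SE 0.60, 95% interval 0.03 to 2.74) was not called (limma adjusted p = 0.111). It was 0.22 without normoxia B and 2.54 without normoxia A, where it was called (limma adjusted p = 1.55e-04), and it was also called without hypoxia B (1.72, limma adjusted p = 0.0425).

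The array names grade how specific a probe set is. Those ending in _x_at hold probes that can match other transcripts and those ending in _s_at match several transcripts in common, often of 1 gene. MALAT1 had 7 of the first kind, 4 of the second and 1 without such a mark, which is 224559_at, so that all 11 calls came from marked sets. The probe sets share a target and are not replicates of each other. On every array all 12 lay above the brightest Bacillus control. Normoxia A exceeded normoxia B in 10 of 12 and hypoxia A exceeded hypoxia B in 7 of 12. Taken by letter, the median difference was 1.20 (0.55 to 1.60) in A and 1.51 (0.96 to 2.60) in B, positive for all 12 in both. Without normoxia B 7 of the 12 were called (224558_s_at, 223577_x_at, 228582_x_at and 223578_x_at lost their call, with limma adjusted p-values of 0.066 to 0.199), with 10, 11 and 12 called without normoxia A, hypoxia A and hypoxia B. Without a trend of the spread with intensity in limma, 2 were called.

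**Figure D1:**
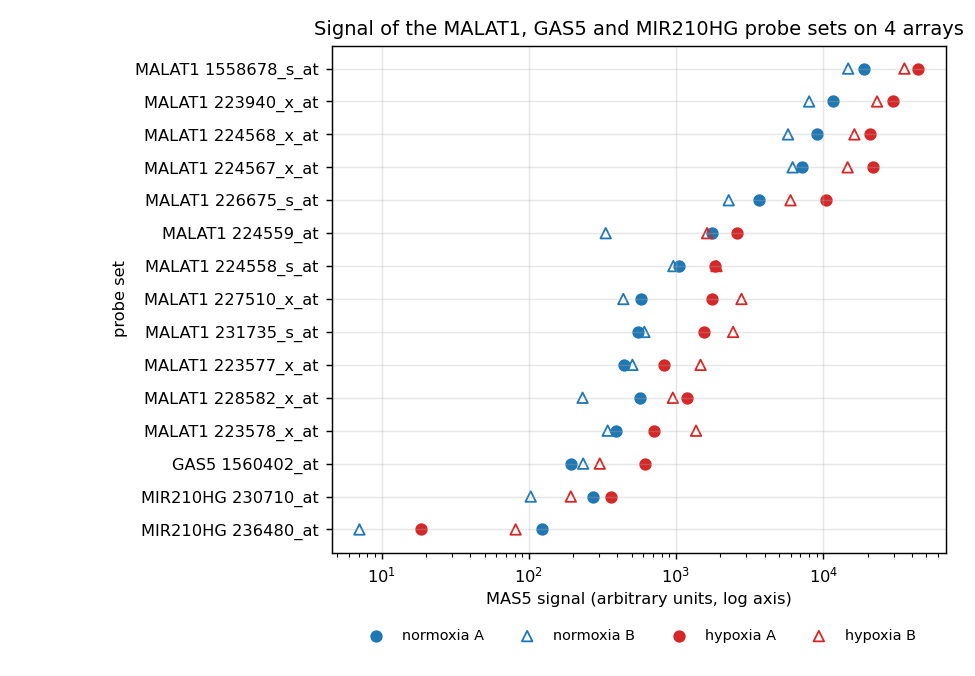
Signal of each of the 15 probe sets of MALAT1, GAS5 and MIR210HG (rows) on each array, in MAS5 units on a log axis, with 1 point per array. In 11 of 12 MALAT1 sets and in GAS5 both hypoxia points (red) lie to the right of both normoxia points (blue), while 224559_at and both MIR210HG sets overlap. Of all probe sets tested, 35.4% have both hypoxia values above both normoxia values. The order is that of signals as deposited. Scaled to the hybridization controls, 9 of the 12 MALAT1 differences, GAS5 and MIR210HG 230710_at turn below 0.

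The direction of MALAT1 depended on what the arrays were scaled to. Quantile normalization and scaling to the 75th percentile left all 12 differences above 0, with medians of 1.36 and 1.54, and 10 and 11 calls. After quantile normalization the brightest set, 1558678_s_at, was not called (difference 0.48, limma adjusted p = 0.151). Scaling to the hybridization controls moved the median of all probe sets tested by -1.35, to -1.30, and that of MALAT1 to -0.03, with 3 of 12 differences above 0 and 0 called in either direction. Relative to the median of all probe sets, MALAT1 lay higher by 1.35 as deposited and by 1.26 on that scaling. The increase is therefore an increase relative to most other transcripts, and which scaling reflects the amount of RNA per cell was not tested.

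**Figure D2:**
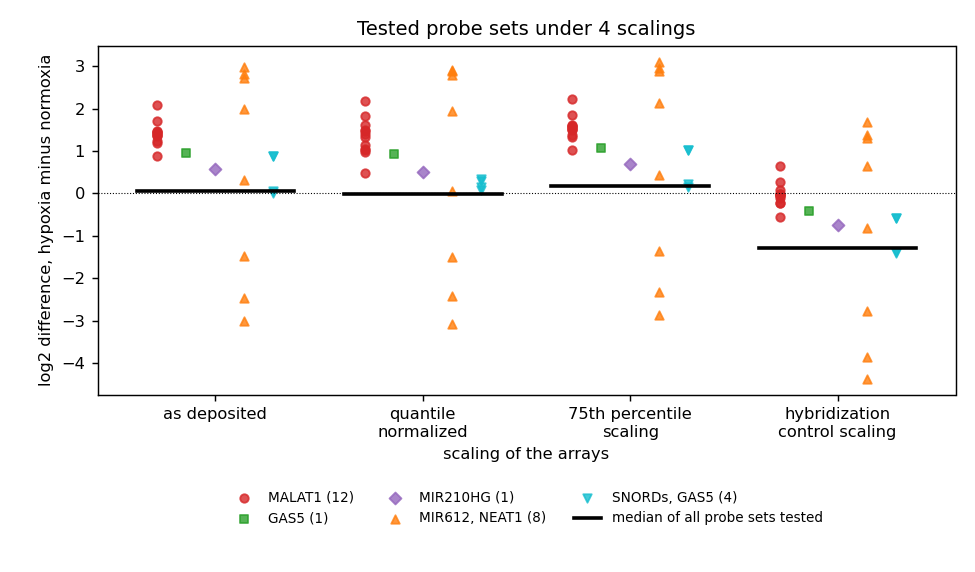
Log2 difference, hypoxia minus normoxia, of each tested probe set under 4 scalings of the arrays, with 1 point per probe set and a black bar at the median of all 27304 tested. All 12 MALAT1 points lie above the bar in each scaling. The bar falls to -1.30 with scaling to the hybridization controls, where the MALAT1 points gather around 0 (median -0.03).

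MIR210HG, the host of miR-210, was not called. Its brighter probe set, 230710_at, read 273 and 103 in normoxia A and B and 359 and 193 in hypoxia A and B. The groups overlapped, because normoxia A lay above hypoxia B, and both B arrays were below their brightest Bacillus control. The difference was 0.57 (SE 0.56, 95% interval -0.69 to 1.84, limma adjusted p = 0.469). It was -0.04 without normoxia B and -0.75 with scaling to the hybridization controls. The interval holds no change as well as a 2-fold increase or more, so a change of MIR210HG was not detectable here.

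The second MIR210HG set, 236480_at, read 122 and 7.06 in normoxia and 18.6 and 81.3 in hypoxia. It lay below the brightest Bacillus control on 3 of 4 arrays and under the filter, and was not tested. Neither group stood above the other. Taken by letter its difference was -1.79 in A and 1.77 in B.

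GAS5 had 1 probe set of its own, 1560402_at, with 195 and 234 in normoxia A and B and 612 and 303 in hypoxia A and B. Both hypoxia values lay above both normoxia values, with hypoxia A well above the rest. The means were 214 ± 27.7 in normoxia and 458 ± 219 in hypoxia (SD, n = 2 each). The log2 difference of 0.94 (SE 0.43, 95% interval -0.02 to 1.91) was not called (limma adjusted p = 0.124). The value rested on which hypoxia array was used. It was 0.46 without hypoxia A (limma adjusted p = 0.378) and 1.42 without hypoxia B (limma adjusted p = 0.00659), where the lone hypoxia array is assumed to vary like the normoxia arrays, and with scaling to the hybridization controls it was -0.41.

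Over the 15 probe sets, 14 passed the filter, 11 of these were called higher (78.6%) and 0 lower. All 14 tested differences were above 0 as deposited, so the count lower is 0 at any threshold. The 11 are all of MALAT1, so the count describes 1 gene. Both hypoxia arrays lay above both normoxia arrays in 12 of 15 and the groups overlapped in 3. Among all probe sets tested, 35.4% had both hypoxia values above and 33.2% both below. A single probe set of 2 against 2 arrays cannot give an exact permutation p under 0.333, so the tests rest on the spread that limma pools over probe sets.

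The 4 probe sets listed for GAS5 with its small nucleolar RNA genes split into 2 pairs. The brighter pair rose. Signals of 224841_x_at were 14771 and 17567 in normoxia and 30172 and 29546 in hypoxia. Those of 224741_x_at were 14489.5 and 16171, then 27439 and 29276. Hypoxia lay above normoxia on all arrays, and both log2 differences were 0.89 (SE 0.19 and 0.18, limma adjusted p = 0.00653 and 0.00569). Quantile normalization reduced the differences to 0.30 and 0.33, still called (limma adjusted p = 0.0391 and 0.0299). Without an intensity trend neither was called (limma adjusted p = 0.0769 and 0.0731). With scaling to the hybridization controls both were -0.57 and neither was called.

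The other pair was not called. For 227517_s_at the arrays read 3447 and 3225 in normoxia and 4696 and 2596 in hypoxia, and for 228238_at they read 1349 and 1333 in normoxia and 1614 and 1144 in hypoxia. In both, hypoxia A was the highest array and hypoxia B the lowest, so that normoxia lay between them. The differences were 0.07 (95% interval -0.52 to 0.65, limma adjusted p = 0.868) and 0.02 (95% interval -0.49 to 0.53, limma adjusted p = 0.956). Without hypoxia A they turned to -0.36 and -0.22, and without hypoxia B 227517_s_at was called at 0.49 (limma adjusted p = 0.0236). The table does not say which of the listed genes or exons a probe set reads, and its share of the signal cannot be assigned.

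The 9 probe sets listed for MIR612 and NEAT1 together moved in opposite directions. Of the 8 tested, 4 rose, 2 fell and 2 were not called. Without a trend of the spread with intensity in limma, 0 were called higher and 1 lower, with adjusted p-values of 0.0542 to 0.0779 for the 4 that rose and 0.145 for 224565_at. These sets had the largest differences of those shown, in both directions, and hypoxia A was above hypoxia B in all 9.

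Signals rose at 225239_at, from 628 and 390 in normoxia A and B to 6080 and 2161 in hypoxia A and B, a log2 difference of 2.81 (SE 0.43, limma adjusted p = 0.00137). At 234989_at they went from 894 and 479 to 7521 and 2684 (2.73, SE 0.44, limma adjusted p = 0.00188). At 227062_at they went from 131 and 25.2, the latter below the brightest Bacillus control, to 1133 and 386 (2.99, SE 0.68, limma adjusted p = 0.00972). None of the 3 overlapped between groups, and hypoxia A was each time more than hypoxia B. The fourth, 238320_at, read 133 and 198 in normoxia and 1023 and 502 in hypoxia (1.99, SE 0.42, limma adjusted p = 0.00708), again without overlap. Of all probe sets tested, 35.4% had both hypoxia values higher.

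Signals fell at 224565_at, from 3668 and 2429 in normoxia to 1136 and 98.5 in hypoxia, a log2 difference of -2.999 (SE 0.80, limma adjusted p = 0.020). They fell at 224566_at from 2241 and 2226 to 580 and 254 (-2.46, SE 0.34, limma adjusted p = 8.83e-04). In both, hypoxia B was the lowest array, and for 224565_at it lay below the brightest Bacillus control. The size of the fall at 224565_at rested on the hypoxia arrays, with -1.38 without hypoxia B and -4.62 without hypoxia A, called in both. The set 214657_s_at, with 525 and 397 in normoxia and 283 and 72.7 in hypoxia, did not overlap either but was not called (-1.48, SE 0.56, limma adjusted p = 0.0734). Its difference ran from -0.65 (hypoxia B left out) to -2.32 (hypoxia A left out), and at the latter it was called (limma adjusted p = 8.11e-04).

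The last pair was dim. For 239269_at the signal was 73.0 and 90.2 in normoxia and 292 and 30.5 in hypoxia, so the groups overlapped (0.32, limma adjusted p = 0.825). The set 220983_s_at lay below the brightest Bacillus control on all 4 arrays and was not tested. The accession the platform table gives for it is that of SPRY4, a different gene, in the RefSeq gene table, so its listing is doubtful.

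**Figure D3:**
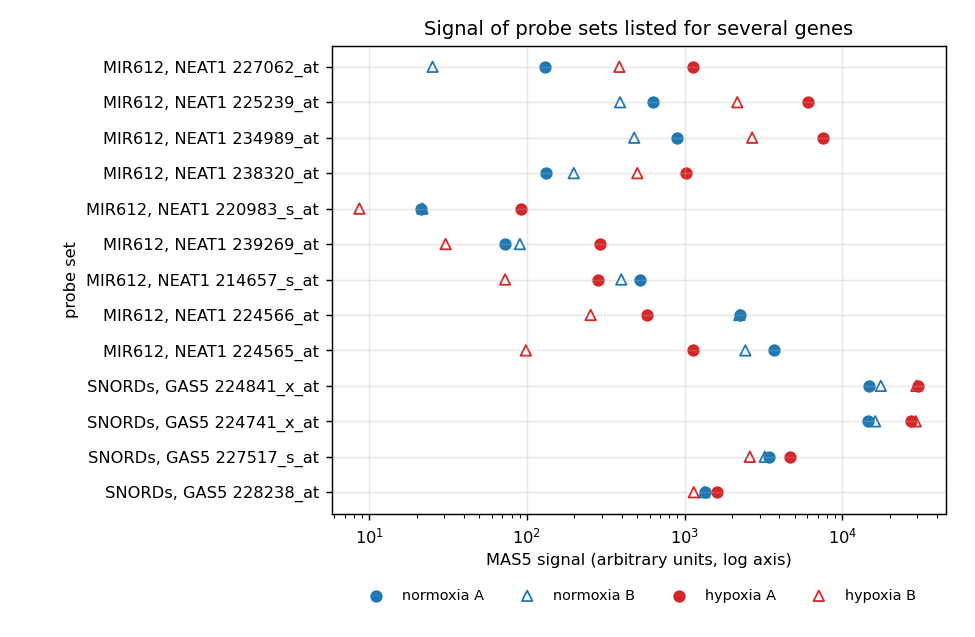
Signal of the 13 probe sets listed for several genes at once (rows), 9 for MIR612 with NEAT1 and 4 for small nucleolar RNA genes (SNORDs) with GAS5, in MAS5 units on a log axis with 1 point per array. In 4 NEAT1 rows both hypoxia points (red) lie right of both normoxia points (blue), and in 3 they lie left. Of all probe sets tested, 35.4% have both hypoxia values higher and 33.2% both lower. Scaled to the hybridization controls the 4 stay higher and the 3 lower, whereas all 4 GAS5 rows turn lower.

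The change of these sets relative to each other can be read within each array, where a common scaling factor largely cancels. It does not show by itself which sets rose and which fell. The mean log2 signal of the 4 rising sets minus that of the 3 sets with lower hypoxia values was -2.26 and -2.60 on the normoxia arrays and 2.19 and 2.84 on the hypoxia arrays, a difference of 4.95. The 7 sets were picked after their values were seen, so this is a description. It shows unequal change among probe sets that the table gives the same pair of names. Scaled to the hybridization controls, 1 of the 8 was called higher and 3 lower. The positions of the probes along NEAT1 were not used here, so isoform, position and listing cannot be told apart.

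**Figure D4:**
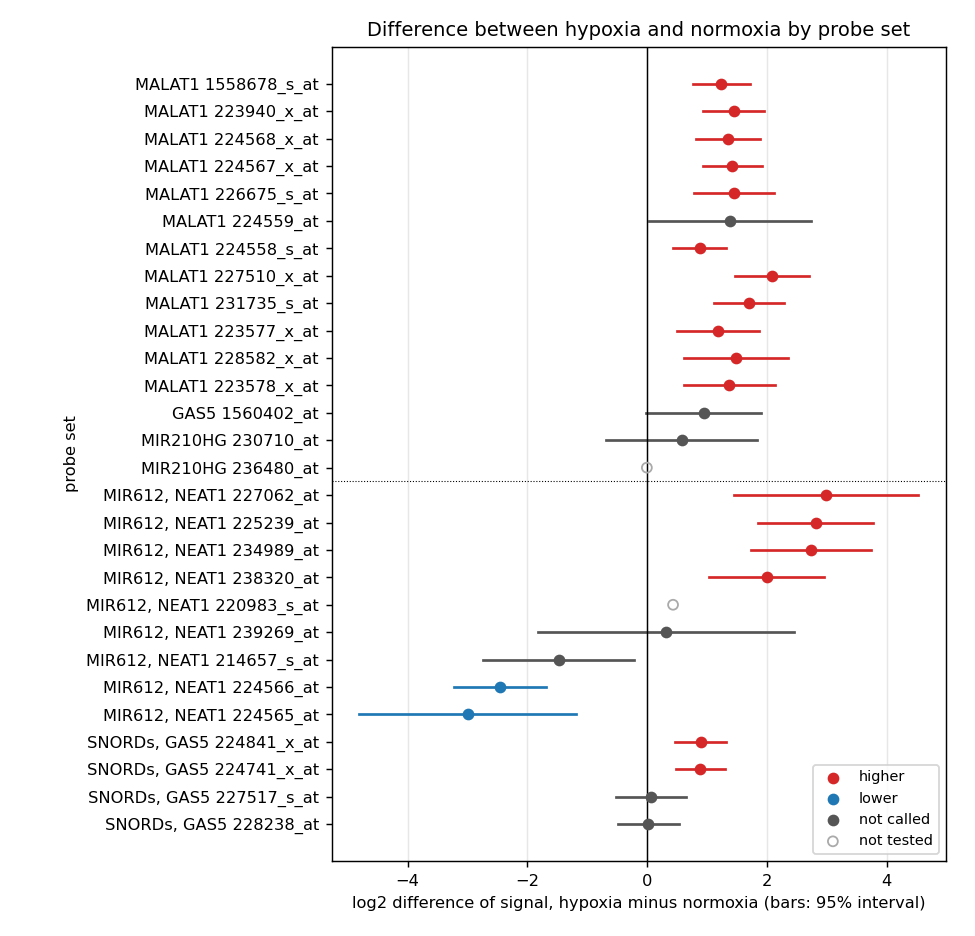
Log2 difference, hypoxia minus normoxia, of each probe set (rows) as deposited, with 95% intervals from limma and colour by call. The 12 MALAT1 points lie between 0.88 and 2.08, and the MIR612 and NEAT1 points spread from -2.999 to 2.99. Scaled to the hybridization controls, 9 MALAT1 points, GAS5, MIR210HG 230710_at, all 4 SNORDs and GAS5 points and 239269_at fall below 0.

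Genes beside these loci were not called. Of the 12 nearest protein-coding genes, up to 2 on each side of a member, 7 were tested (FRMD8, LTBP3, RASSF7, LMNTD2, PHRF1, CENPL and RC3H1), with differences from -0.50 to 0.43 and limma adjusted p-values of at least 0.119. None had an unadjusted p under 0.05. ZBTB37, which overlaps GAS5, read 250 and 200 in normoxia and 102 and 94.5 in hypoxia, without overlap, and was not called (-1.02, SE 0.55, limma adjusted p = 0.190). TALAM1, an antisense RNA, overlaps MALAT1 and has no probe set of its own here.

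The signal patterns most like those of the members were found by Euclidean distance over the 4 arrays between log2 values centred on their mean. For MALAT1 1558678_s_at these were EEFSEC (0.031), SPRY4 (0.052), MIA (0.054) and PSORS1C1 (0.062). For GAS5 1560402_at they were SLC3A1, CHST13, PIP4P1 and TNFSF13 (0.064 to 0.13), and for MIR210HG 230710_at ZNF100, FCSK, PLTP and ATXN2L, at larger distances (0.19 to 0.31). With 4 arrays many genes share a pattern.

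The genes that work with these RNAs were counted from lists, with the brightest probe set of each gene. Among all 12636 genes tested this way, 14.5% were called higher and 21.7% lower, and the median difference was -0.03. Of the 72 called genes of the lists and markers, 46 had further probe sets past the filter, and in 12, DHX34, HNRNPH3 and NUDT21 among them, at least 1 of those had the opposite sign. Further sets of the same sign could lie near 0, as in AGO4 (0.004) and ZFAS1 (0.14).

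Genes of paraspeckle proteins, which NEAT1 assembles, were mostly lower or not called. Of 20 tested, 10 fell, 1 rose and 9 were not called, with a median of -0.88. SFPQ, an RNA-binding protein at the core of paraspeckles, read 5272 and 4748 in normoxia and 422 and 1330 in hypoxia (-2.69, SE 0.42, limma adjusted p = 0.00153). HNRNPH3 (-2.09, SE 0.27), NUDT21, a subunit of a cleavage factor that promotes 3′ end formation of the short NEAT1 isoform (-1.56, SE 0.17), and TAF15 (-1.31, SE 0.22) fell too. The 2 other TAF15 probe sets tested read -0.25 and -0.04, and the 4 other SFPQ sets ran from -2.25 to -0.04. NONO, the partner of SFPQ, fell by 0.75 (SE 0.21, limma adjusted p = 0.0258). PSPC1, of the same family, was the 1 that rose (0.98, SE 0.23, limma adjusted p = 0.0123), but not without normoxia A or B (limma adjusted p = 0.0825 and 0.157), and it read -0.45 with scaling to the hybridization controls. The 3 other PSPC1 probe sets tested ran from -2.29 to 0.43. Without normoxia A or B, 7 or 5 genes of this list were called lower. NONO was not called without normoxia B or hypoxia B (limma adjusted p = 0.0639 and 0.106), nor TAF15 without normoxia B (0.054).

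Genes of nuclear speckle proteins, where MALAT1 gathers, showed 9 lower, 1 higher and 9 not called of 19, with a median of -0.45. SRSF7 fell from 10023 and 12398 to 1887 and 1951 (-2.52, SE 0.18, limma adjusted p = 5.41e-05). The splicing regulators TRA2A (-2.28, SE 0.18), TRA2B (-1.91, SE 0.17) and SRSF3 (-1.62, SE 0.22) fell as well, but the 5 other SRSF3 probe sets tested ran from -3.51 to 1.63. SRSF4 was the gene that rose (0.77, SE 0.17, limma adjusted p = 0.00836). It was not called without normoxia A (limma adjusted p = 0.0896) and read -0.68 with scaling to the hybridization controls.

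The RNase P subunits, whose holoenzyme cuts MALAT1 at its 3′ end, were mostly lower. Of 10 tested, 8 fell and 0 rose, with a median of -1.31 and differences from -4.23 to -0.98. RPP40 had the largest change, from 2067 and 2375 in normoxia to 88.4 and 103 in hypoxia (-4.23, SE 0.29, limma adjusted p = 4.67e-05). Both hypoxia values lay below the brightest Bacillus control of their array (305 in A and 226 in B), so the size of this fall is uncertain. POP5 (-2.70, SE 0.22), RPP25L (-1.88, SE 0.39) and POP4 (-1.32, SE 0.21) followed among the called genes. Without normoxia A or B, 5 or 4 were called lower.

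Genes that process microRNAs were mixed, with 2 higher, 2 lower and 5 not called of 9. XPO5, which exports microRNA precursors from the nucleus, fell (-1.37, SE 0.21, limma adjusted p = 0.00135), as did DROSHA, the nuclear nuclease (-1.20, SE 0.22, limma adjusted p = 0.00347). AGO2 (0.83, SE 0.18) and AGO4 (0.74, SE 0.25), which bind mature microRNAs, rose. Both read below 0 with scaling to the hybridization controls, and neither was called without normoxia B (limma adjusted p = 0.0768 and 0.446). Without normoxia A, DROSHA and AGO4 were not called (limma adjusted p = 0.0766 and 0.143).

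Of 12 tested genes known as targets of miR-210, 2 fell, 1 rose and 9 were not called, with a median of -0.14. GPD1L fell from 2499 and 2437 to 287 and 652 (-2.44, SE 0.33, limma adjusted p = 8.63e-04). Its hypoxia A value lay below the brightest Bacillus control of that array (305). ISCU, an iron-sulfur cluster scaffold, fell from 9170 and 8152 to 4478 and 4879 (-0.88, SE 0.17, limma adjusted p = 0.00419). EFNA3, an ephrin ligand, rose (1.65, SE 0.26, limma adjusted p = 0.00179), and with scaling to the hybridization controls it was not called (0.25). Without either hypoxia array, 2 genes were called higher. Against the 14.5% higher and 21.7% lower over all genes, this list shows no excess of lower genes.

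Other hosts of small nucleolar RNAs had 3 higher, 1 lower and 4 not called of 8 tested, and 17 of the 28 in the list had no probe set listed for them alone. ZFAS1, like GAS5 a host of small nucleolar RNAs, read 21924 and 28702 in normoxia and 51423 and 52231 in hypoxia (1.05, SE 0.21, limma adjusted p = 0.00524). SNHG19 (1.02, SE 0.18) and SNHG32 (0.68, SE 0.21) rose and EPB41L4A-AS1 fell (-0.77, SE 0.20). Without hypoxia B, 3 were called lower. All 3 that rose read below 0 with scaling to the hybridization controls (-0.41, -0.42 and -0.78). SNHG19 was not called without normoxia B (limma adjusted p = 0.0562), nor SNHG32 without normoxia A or hypoxia B (0.0996 and 0.0818). Quantile normalization left 1 of the 3 called and moved ZFAS1 to 0.13 (limma adjusted p = 0.253).

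Nonsense-mediated decay, which degrades spliced GAS5, had 1 gene higher, 2 lower and 8 not called of 11. DHX34 (-2.91, SE 0.64, limma adjusted p = 0.00849) and MAGOHB (-1.93, SE 0.35, limma adjusted p = 0.00330) fell, and EIF4A3, a core of the exon junction complex, rose (0.74, SE 0.18, limma adjusted p = 0.0125). EIF4A3 read -0.71 with scaling to the hybridization controls. In hypoxia A and B, DHX34 (88.4 and 15.9) and MAGOHB (285 and 166) lay below the brightest Bacillus control of the array. Without either normoxia array DHX34 was not called (limma adjusted p = 0.185 without A and 0.0613 without B), whereas the number of genes lower grew to 4 without hypoxia A and 6 without hypoxia B.

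The glucocorticoid receptor gene and genes it is known to induce showed 4 higher, 1 lower and 1 not called of 6. NR3C1, the receptor, rose from 662 and 553 to 1988 and 1594 (1.52, SE 0.23, limma adjusted p = 0.00132). DUSP1 (3.70, SE 0.18), TSC22D3 (2.16, SE 0.19) and KLF9 (1.92, SE 0.24) rose, and FKBP5 fell (-0.72, SE 0.21, limma adjusted p = 0.0297). The 2 other DUSP1 probe sets tested read 0.06 and 2.53. With scaling to the hybridization controls 1 of the 4 was called higher, and without either normoxia array FKBP5 was not called (limma adjusted p = 0.261 and 0.152).

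Of 19 other long noncoding RNA genes tested, 1 rose, 3 fell and 15 were not called, with a median of -0.11. MIR31HG, host of miR-31, rose from 185 and 181 to 505 and 1056 (1.87, SE 0.40, limma adjusted p = 0.00748). DLEU2, host of miR-15a and miR-16-1, fell (-3.19, SE 0.70, limma adjusted p = 0.00820), and so did DANCR (-0.99, SE 0.21) and TUG1 (-0.99, SE 0.22). Without normoxia A none of these 3 was called (limma adjusted p = 0.167, 0.0566 and 0.13), and without normoxia B DLEU2 alone was. The hypoxia values of DLEU2, 103 in A and 9.39 in B, lay below the brightest Bacillus control of their array. With scaling to the hybridization controls MIR31HG was not called (0.51). The number of genes higher was 4 without hypoxia A, 2 without hypoxia B and 3 with scaling to the 75th percentile.

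As a check of the labels, 9 of 12 hypoxia genes rose, 1 fell and 2 were not called. ANKRD37 (5.02, SE 0.25), NDRG1 (4.02, SE 0.19), EGLN3, an oxygen-sensing prolyl hydroxylase (3.76, SE 0.33), and HK2, a glycolytic enzyme (3.12, SE 0.20), had the largest increases. The other HK2 probe set tested read -1.33. HIF1A, whose protein is controlled mainly by its stability, was slightly lower (-0.51, SE 0.17, limma adjusted p = 0.0486), a call that was lost without either normoxia array or hypoxia B (limma adjusted p = 0.0976 to 0.171). Of 10 genes in the serum and growth arrest list 6 fell, all of them proliferation genes. They were led by MCM5 (-3.21, SE 0.65), RRM2 (-3.12, SE 0.35), CCNB1 (-2.65, SE 0.21) and MCM2 (-2.53, SE 0.20). MCM5 read 42.7 in hypoxia B, below the brightest Bacillus control of that array (226). The 1 that rose was the cell cycle inhibitor CDKN1B (0.93, SE 0.18). The growth arrest genes GAS1 (1.06) and GAS6 (-0.24) and the inhibitor CDKN1A (0.11) were not called.

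**Figure D5:**
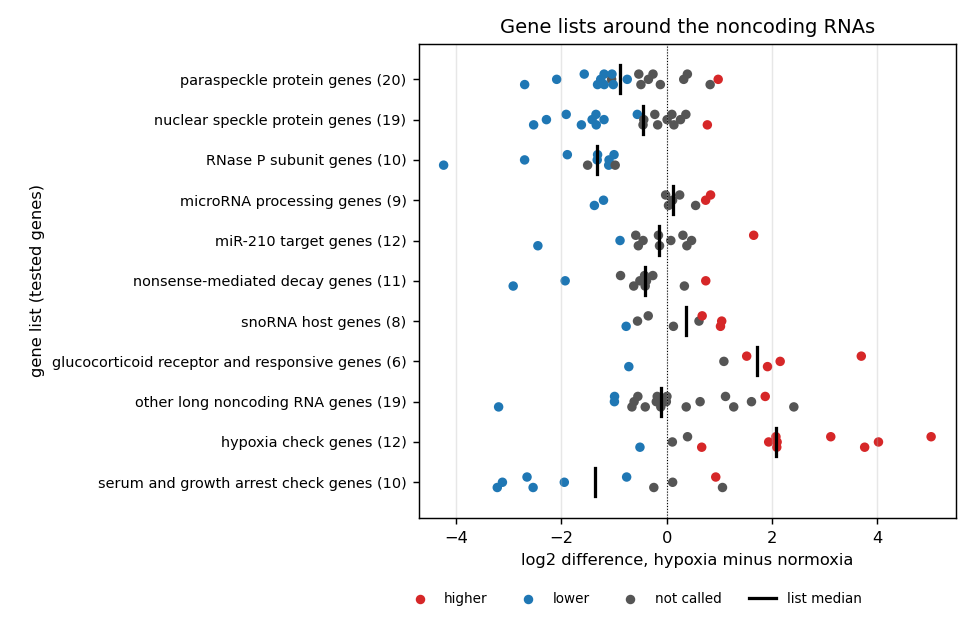
Log2 difference, hypoxia minus normoxia, of each tested gene of 11 lists (rows, number tested in brackets), with 1 point per gene coloured by call and a bar at the list median, as deposited. Medians run from -1.35 for the serum and growth arrest list and -1.31 for RNase P subunits to 2.08 for hypoxia genes. In the first of these lists the genes called lower were proliferation genes. Scaling to the hybridization controls moves the median of all probe sets by -1.35 and turns 10 of the 21 named genes that rose below 0.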

How the data were processed

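Total RNA of 4 HCT116 samples was labelled and hybridized to Affymetrix arrays of 54675 probe sets. The deposited values are intensities on a linear scale, 1 per probe set, made by the authors with MAS5, per the submitters' processing notes (version not given in the sources used here). All arrays had the same trimmed mean, which hides any shift that most genes share. The number of arrays limits the precision. No pair of arrays shared more than 1 identical value. Names came from the platform annotation: of the probe sets, 62 were controls, 41091 had 1 gene, 1801 several and 11721 none, and 19735 of 19775 genes matched RefSeq (GRCh38.p14).

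Values were taken as log2(signal + 23.7), the constant being the 25th percentile of all values, with no further normalization, and a fold change on this scale understates that of low signals. Probe sets with a mean of 97.4 or more, the median of probe set means, entered a linear model over the 4 arrays, fitted in R 4.3.3 with limma 3.58.1 (lmFit, eBayes with an intensity trend, two-sided, Benjamini-Hochberg adjustment over 27304, calls under 0.05). The model was tested on simulated data. Python 3.11.15 with matplotlib 3.10.9 drew the figures.

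Named are all probe sets of the members, up to 4 called genes of each list with the largest difference, the nearest protein-coding genes and the 4 genes with the most similar pattern. NONO, PSPC1, SRSF4, EIF4A3, FKBP5, HIF1A, CDKN1B, SNHG32, ZBTB37 and the markers named beside them were, where the rule does not give them, chosen after their values were seen. The members and lists were chosen with earlier results of these data known. Alternatives were other pseudocounts, scalings, filters, variance models and thresholds, 1 probe set a gene, a replicate block and leaving out each array.

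Whether the letters pair the arrays was checked by the correlation of deviations from the group means, which was 0.06. In each group the deviation of B is minus that of A. Both letters must therefore give the same value, and they are not separate checks.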

Additional observations from a re-analysis of the deposited data

How the results depend on the processing

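Scaling to the hybridization controls changed the most. It gave 0 member calls and, over all probe sets, 110 higher and 10150 lower, and it moved below 0 the MALAT1 sets 1558678_s_at (-0.22), 223940_x_at (-0.012), 224568_x_at (-0.11), 224567_x_at (-0.038), 226675_s_at (-0.0019), 224559_at (-0.052), 224558_s_at (-0.56), 223577_x_at (-0.23) and 223578_x_at (-0.032), GAS5 1560402_at (-0.41) and MIR210HG 230710_at (-0.75). Among sets listed for several genes it did so for 224841_x_at (-0.57), 224741_x_at (-0.57), 227517_s_at (-1.38), 228238_at (-1.41) and 239269_at (-0.81), and among named genes for AGO2 (-0.62), AGO4 (-0.68), CDH1 (-0.43), EIF4A3 (-0.71), EPCAM (-0.80), PSPC1 (-0.45), SNHG19 (-0.42), SNHG32 (-0.78), SRSF4 (-0.68) and ZFAS1 (-0.41). This follows from the brighter controls in hypoxia, which also differed between normoxia A and B. Which scaling is right was not tested. Scaling to the 75th percentile shifted the median of all probe sets by 0.14 and gave 4575 higher and 3927 lower (53.8% higher, against 44.5%).

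With 1 probe set a gene, the 11 member calls, all of MALAT1, could leave at most 1, and 1 was left. Without sets ending in _x_at or _s_at 0 were left, and without an intensity trend 2. Over all probe sets these gave 1927 higher and 2876 lower (1 a gene) and 1704 and 2120 (no trend), and an adjusted p under 0.01 gave 2049 and 2676. Leaving out each array in turn gave 7 to 13 member calls, and 2267 to 5000 higher and 2043 to 6785 lower over all, with fewer arrays in a group. Over these fits MIR210HG 230710_at ranged from -0.041 without normoxia B to 1.19 without normoxia A. From the fit without hypoxia A to that without hypoxia B, 227517_s_at ranged from -0.36 to 0.49, 228238_at from -0.22 to 0.26 and 239269_at from -0.95 to 1.59. The cause was not tested.

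With the replicate block, 12 MALAT1 sets were called higher, 224559_at included (limma adjusted p = 5.13e-08), and 214657_s_at was called lower (-1.48, limma adjusted p = 0.00964). Over all, 4446 probe sets were called higher and 5669 lower. With 4 arrays this fit has almost no residual freedom of its own, so its p-values rest on the spread pooled over probe sets. They do not measure the spread of 224559_at, whose differences were 0.55 in A and 2.21 in B. With 2 pairs and a correlation of 0.06, the letters are not shown to pair the arrays. Of the 50 named genes of the lists, 11 lost their call without normoxia A, 11 without normoxia B, 1 without hypoxia A, 4 without hypoxia B and 23 without an intensity trend. Signals near the Bacillus controls, as for MIR210HG, limit what can be seen.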
